A study of Mus musculus with 2 samples.

Results

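The 8 genes described here are 3 Six-family members (Six2, Six4 and Six5), the 4 Eya genes (Eya1, Eya2, Eya3 and Eya4) and Dach1, all measured in the embryonic mouse kidney. They are listed by name, with no threshold on a measured value, and are 8 of the 43346 mouse genes in the tables, of which 21461 are nuclear protein-coding genes. The data are total RNA-seq of whole kidneys from B6NCrl embryos aged 15.5 days, when nephron progenitors are still dividing and differentiating. There was 1 group, with no treatment, mutant or second tissue, and it was sequenced as 2 biological replicate libraries. Replicate 1 pooled the kidneys of 78 embryos and replicate 2 those of 62 embryos, male and female together, and each library was made from 10 ng of RNA. Both pools carry the same strain donor label, so the spread between them is that between pools of 1 strain, and a pool hides the variation between embryos. The libraries held 36244861 and 39415002 expected counts, the quantifier's estimates of reads per gene, and 15108 genes reached 1 TPM in both.

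The Eya, Dach and Six-family proteins form a conserved regulatory network first described in the developing eye of the fruit fly. Six-family proteins bind DNA through a homeodomain; Eya proteins do not bind DNA themselves but are drawn to it by their Six-family partners, act there as co-activators, and carry a phosphatase domain; Dach proteins resemble the Ski co-repressors and can turn the same complexes towards repression. In the kidney, Eya1 is needed for the metanephric mesenchyme to form and to express the ureteric bud attractant Gdnf, Six2 keeps nephron progenitors undifferentiated, and heterozygous loss of EYA1 in people causes branchio-oto-renal syndrome.

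The kinship of the family members can be read in short stretches of their coding DNA. For the Six-family genes the stretch is the end of the homeodomain's recognition helix, the part that lies in the DNA groove; the 24 bases that encode it are in capitals, with 9 bases on either side, from the leading transcript of each gene (GENCODE M21, build GRCm38). All 3 lie in exon 1, at chr17:85687410-85687451 on the minus strand for Six2, chr12:73112366-73112407 on the minus strand for Six4, and chr7:19095348-19095389 on the plus strand for Six5.
Six2: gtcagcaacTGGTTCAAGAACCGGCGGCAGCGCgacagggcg
Six4: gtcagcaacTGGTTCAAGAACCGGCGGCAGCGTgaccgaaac
Six5: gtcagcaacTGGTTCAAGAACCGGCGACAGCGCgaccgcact
Of these 24 bases, 23 were identical between Six2 and Six4, 23 between Six2 and Six5, and 22 between Six4 and Six5.

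For the Eya genes the stretch is the motif that holds the catalytic aspartates of the phosphatase domain, with its 18 bases in capitals. The positions are chr1:14229538-14229573 (minus strand, exon 11 of 18 of Eya1-201), chr2:165731556-165731591 (plus strand, exon 9 of 16 of Eya2-202), chr4:132699033-132699068 (plus strand, exon 10 of 17 of Eya3-203) and chr10:23138236-23138271 (minus strand, exon 12 of 19 of Eya4-202).
Eya1: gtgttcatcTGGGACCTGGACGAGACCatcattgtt
Eya2: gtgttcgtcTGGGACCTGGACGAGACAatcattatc
Eya3: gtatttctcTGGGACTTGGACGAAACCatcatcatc
Eya4: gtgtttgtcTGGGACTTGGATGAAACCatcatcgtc
Eya1 shared 17 of the 18 bases with Eya2, and Eya3 shared 17 with Eya4, while Eya2 and Eya4 shared 14. No 2 of the printed stretches were identical, among the Eya genes or among the Six-family genes.

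All 8 genes were detected, meaning that each library gave them at least 1 TPM, as were 62.3% of nuclear protein-coding genes. TPM, an abundance that is adjusted for transcript length and scaled to one total per library, can be compared between genes. The levels ran over an 11.7-fold range, with a median of 11.2 TPM against 19.5 TPM for detected nuclear protein-coding genes. Eya1 lay above 71.1% of those detected genes and Eya3 above 56.0%. The other members lay above 13.4% (Six4) to 45.7% (Dach1) of them. In bulk tissue, fewer cells of a type and less RNA per cell cannot be told apart, and none of these levels says which cells hold the RNA.

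Among the DNA-binding members, Six2 (ENSMUSG00000024134.11; chromosome 17, 85684277 to 85688274) was highest. It stood at 13.9 TPM in replicate 1 and 15.3 TPM in replicate 2, a mean of 14.6 ± 0.997 TPM (SD, n = 2), from 686 and 814 counts. Six5 (ENSMUSG00000040841.5; chromosome 7, 19094594 to 19098549), whose human counterpart lies beside the myotonic dystrophy kinase gene, was at 6.59 and 8.22 TPM (7.41 ± 1.15). Six4 (ENSMUSG00000034460.9; chromosome 12, 73099609 to 73113456), known for its part in muscle development and for roles that overlap those of its relatives, was lowest of all 8 at 3.66 and 3.39 TPM (3.53 ± 0.191). Both of Six4's values lay below every value of the other 7 genes, and its 570 and 568 counts came from a long transcript. The 3 Six-family genes are compact, with spans from 3.96 to 13.8 kb.

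Among the co-activators, Eya1 (ENSMUSG00000025932.10; chromosome 1, 14168954 to 14310235) was the most abundant member of the whole set. It was at 44.1 TPM in replicate 1 and 38.5 TPM in replicate 2 (41.3 ± 3.96), from 2881 and 3034 counts, and ranked 3863 among 21461 nuclear protein-coding genes. Both values lay above every value of the other 7 genes. Eya3 (ENSMUSG00000028886.11; chromosome 4, 132638987 to 132724765), a widely expressed member, followed at 21.3 and 26.9 TPM (24.1 ± 3.95), from 917 and 1163 counts; most of that signal was assigned to transcripts without an annotated coding region, as set out further on. Eya4 (ENSMUSG00000010461.10; chromosome 10, 23102963 to 23350786), known from inherited hearing loss, was at 8.48 and 7.26 TPM (7.87 ± 0.863). Eya2 (ENSMUSG00000017897.14; chromosome 2, 165595032 to 165771727), which acts with Six-family proteins in muscle precursors, was at 5.39 and 5.60 TPM (5.50 ± 0.148). The Eya genes are far longer than the Six-family genes, from 85.8 kb for Eya3 to 248 kb for Eya4. Dach1 (ENSMUSG00000055639.12; chromosome 14, 97786853 to 98169765), the co-repressor, spans 383 kb and was at 18.0 and 15.3 TPM (16.7 ± 1.91), from 2195 and 2005 counts.

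**Figure D1:**
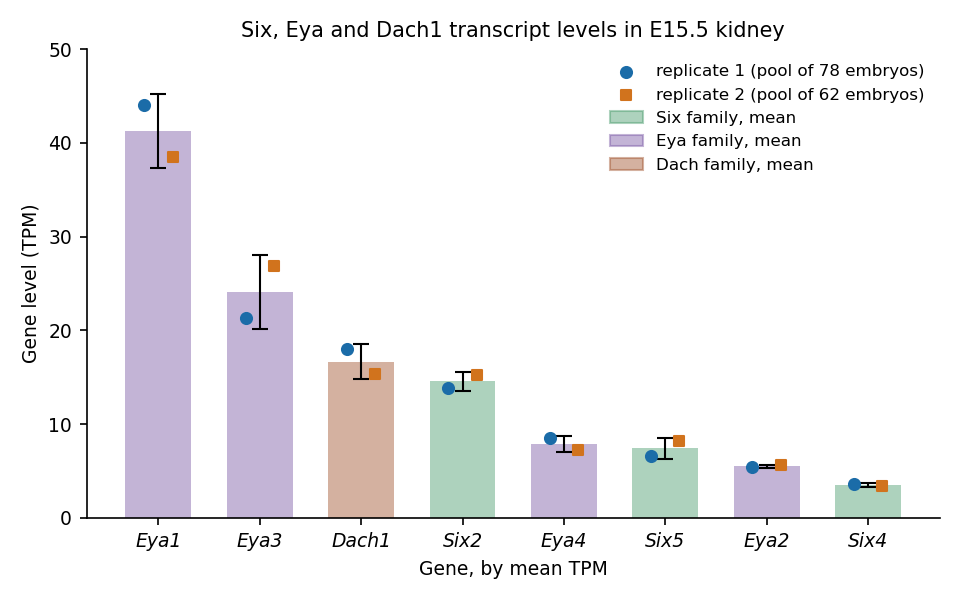
Gene level in TPM (vertical axis) of the 8 genes, in order of mean level (horizontal axis); bars are means of the 2 libraries, error bars are the SD, and points are the replicate 1 (circle) and replicate 2 (square) libraries. Eya1 at 44.1 and 38.5 TPM stands above all other values, and Six4 at 3.66 and 3.39 TPM below them.

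Which of these levels differ beyond the spread between libraries was asked for all 28 pairs of the 8 genes. A pair was taken to differ where the difference of log2(TPM + 1) had the same sign in both libraries and in both exceeded the 95th percentile of the replicate error, the absolute log2 TPM ratio between the libraries for genes of the lower gene's abundance (0.37 for genes at 10 to 30 TPM, 0.79 at 3 to 10 TPM). With 2 libraries an exact paired permutation test cannot go below p = 0.5, so no test was run. Of the 28 pairs, 20 differed by this rule, and 82.2% of all pairs of detected nuclear protein-coding genes did, so the share is no larger than for genes in general.

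Eya1 differed from each of the other 7 genes, by 0.76 ± 0.36 (SD, n = 2) from Eya3 up to 3.22 ± 0.074 from Six4, on the log2(TPM + 1) scale. Eya3 exceeded Six2 by 0.68 ± 0.14, and Six2 exceeded its relatives Six5 by 0.90 ± 0.11 and Six4 by 1.78 ± 0.15. With FPKM in place of TPM, Eya3 and Six2 no longer differed by this rule, and with TPM rescaled over nuclear genes neither Six2 and Six5 nor Dach1 and Six5 did. Dach1 and Six2 did not differ beyond replicate error: Dach1 was 0.36 above Six2 in replicate 1 and 0.0044 above it in replicate 2. Eya3 was above Dach1 by 0.23 in replicate 1, within the error, and by 0.77 in replicate 2, beyond it. Eya4 and Six5 changed order between the libraries, with Eya4 higher by 0.32 in replicate 1 and lower in replicate 2 (-0.16); the other 27 pairs kept their sign. Of the 7 pairs next to each other in the order Eya1, Eya3, Dach1, Six2, Eya4, Six5, Eya2, Six4, only Eya1 and Eya3 differed beyond replicate error. By this rule Eya1 came first, and the upper 4 genes separated from the lower 4 in every pair except Six2 and Eya4. The lower 4 were not ordered step by step: among those, only Eya4 and Six4 differed, by 0.97 ± 0.080. The rule sets a difference between 2 genes against the spread of single genes between libraries. An error in a gene's level that both libraries share is not covered. With 0.1 in place of 1 added to TPM, Six5 and Six4 also differed by this rule, by a mean of 1.04. The place of Eya3 holds for all transcripts summed and not for coding ones: on protein-coding forms its mean was below those of Dach1, Six2, Eya4 and Six5, and on complete coding forms below those of all other members, where Eya1 and Dach1 no longer differed by this rule.

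**Figure D2:**
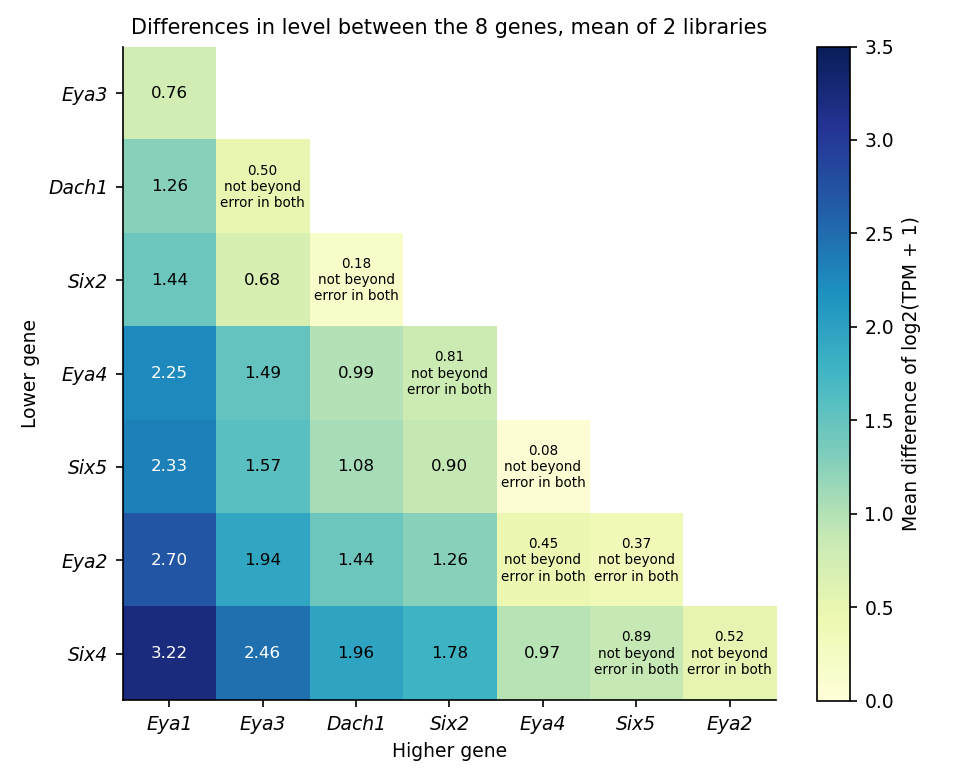
Mean difference of log2(TPM + 1) over the 2 libraries between the higher gene (horizontal axis) and the lower gene (vertical axis) of each of the 28 pairs, with colour for its size. The 8 pairs marked as not beyond error in both libraries lie mostly along the diagonal, where genes are neighbours in level, and the column of Eya1 holds values from 0.76 to 3.22 with no such mark.

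Summed by family, the 3 Six-family genes came to 24.1 and 26.9 TPM (25.5 ± 1.96) and the 4 Eya genes to 79.2 and 78.2 TPM (78.7 ± 0.728). The ratio of co-activator to DNA-binding partner transcripts was 3.28 in replicate 1 and 2.91 in replicate 2 (3.10 ± 0.266), over these 7 genes only. Most of Eya3's TPM lay in forms with no annotated coding region, and on complete coding forms the ratio was 1.46. Six2 made up 57.2% ± 0.481 of the Six-family sum, Six5 28.9% ± 2.30 and Six4 13.9% ± 1.82. Eya1 made up 52.4% ± 4.55 of the Eya sum, Eya3 30.6% ± 5.30, Eya4 9.99% ± 1.00 and Eya2 6.98% ± 0.253. The Eya sum differed by less between libraries than Eya1 and Eya3 did singly, since Eya1 was higher in replicate 1 and Eya3 higher in replicate 2.

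Of a list of 40 genes that act with this network, 35 were detected, against 62.3% of nuclear protein-coding genes. None differed 2-fold between the libraries with a mean count of 100 or more, and 1.23% of all genes with such a count did. The list was chosen with earlier results of these data known, so neither count is a test of the network. All 12 kidney progenitor factors were detected, from Wt1 at 104 ± 1.59 TPM, Pax8 at 104 ± 0.361 TPM and Sall1 at 34.6 ± 0.255 TPM down to Meox1 at 11.8 ± 1.09, Foxc1 at 5.57 ± 0.955 and Hoxc11 at 1.88 ± 0.679 TPM. Pax2 and the Hox11 genes, which cooperate with Eya1 at Six2 and Gdnf, belong here: Pax2 was at 29.2 ± 1.10, Hoxa11 at 28.2 ± 0.170 and Hoxd11 at 20.6 TPM in replicate 1 and 21.3 TPM in replicate 2. All 8 signals and targets were detected. Cited1, a marker of uncommitted progenitors, was at 126 ± 2.33 TPM, Crym at 60.6 ± 1.58 and Bmp7 at 36.3 ± 1.56. Ret, the Gdnf receptor, was at 9.17 ± 0.834, the differentiation signal Wnt4 at 8.75 ± 0.255 and Gdnf itself at 7.09 ± 0.700 TPM.

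The partners that Dach and Six-family proteins recruit for repression had a higher mean TPM than Dach1 in 9 of 11 cases, Skil by less than its SD. Dach1 lay above 45.7% of detected nuclear protein-coding genes, so most genes were higher than it. Hdac1, a histone deacetylase, was at 220 ± 4.09 TPM, the co-repressor scaffold Ncor1 at 138 ± 2.97 and Hdac3 at 103 ± 1.63. The lowest were Skil at 17.9 ± 2.52, Ski at 12.9 ± 1.17 and the Groucho-type co-repressor Tle4 at 10.9 ± 0.219 TPM. Of 6 myogenic genes that Eya and Six-family proteins drive in muscle, 3 were detected: Myog at 13.4 ± 4.03, Met at 12.7 ± 0.488 and Myod1 at 2.19 ± 0.530 TPM. Of nuclear protein-coding genes, 62.3% were detected. Myog (16.3 and 10.6 TPM) and Myod1 (2.56 and 1.81 TPM) also serve below as markers of skeletal muscle, a tissue other than kidney. Whether their RNA came from muscle in the pools was not tested. Pax3 (8 and 1 counts), Pax7 (6 and 10 counts) and Myf5 (32 and 40 counts) lay below 1 TPM. Among other relatives, Dach2 was at 6.64 and 8.20 TPM (7.42 ± 1.10), below Dach1 in both libraries. Six3 had 0 and 1 counts and Six6 had 0 in both. A zero allows a true level of up to 3 counts (one-sided 95% bound, counting error only).

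Between the pools, 4 of the 8 genes were higher in replicate 2 and 4 were lower, and none reached a TPM ratio of 2; 1.23% of genes with a mean count of 100 or more did. None exceeded the 95th percentile of replicate error in its abundance bin, which few genes do by definition. The bin's median was exceeded by 6, and by definition as many genes lie above a median as below it. The median absolute log2 TPM ratio was 0.21 for the 8 genes and 0.11 for all 15108 detected genes, of any abundance. In the bins that hold the 8 genes it was 0.16 at 3 to 10 TPM, 0.10 at 10 to 30 TPM and 0.08 at 30 to 100 TPM. The log2 TPM ratio of replicate 2 over replicate 1 was 0.34 for Eya3, 0.32 for Six5, 0.14 for Six2 and 0.06 for Eya2. It was -0.11 for Six4, -0.20 for Eya1, -0.22 for Eya4 and -0.23 for Dach1.

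For 4 of the 8 genes, the exact 95% interval of the count ratio (counts scaled to the library's mouse-gene total, CPM) lay to one side of 1, as it did for 41.1% of genes with a mean count of 100 or more, so the share is close to that of genes in general. These intervals cover counting error only, not the difference between pools. For Six5 the count ratio was 1.24 (1.10 to 1.41), for Eya3 1.17 (1.08 to 1.28), for Eya4 0.855 (0.773 to 0.947) and for Dach1 0.846 (0.796 to 0.899). Eya1 shows how the unit matters: its count ratio was 0.976 (0.927 to 1.03) while its TPM ratio was 0.873. Its estimated effective length, the length that the assigned mixture of transcripts offers to reads, was 2668 nt in replicate 1 and 2989 nt in replicate 2, a ratio of 1.12. The lower TPM of Eya1 in replicate 2 thus came with a longer assigned mixture and nearly the same share of counts.

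Markers of tissues other than kidney also differed between the pools, in both directions. All 6 adrenal genes (Cyp11a1, Star, Hsd3b1, Th, Dbh and Chga) were higher in replicate 2, by 2.93-fold to 6.41-fold, and their sum went from 39.9 to 153 TPM. Of 9 skeletal muscle genes (Myod1, Myog, Myf5, Acta1, Actc1, Tnnt3, Myh3, Myh8 and Des), 8 were lower in replicate 2, and the sum went from 446 to 279 TPM. None of these 15 genes was at 0 in either library. The 6 nephron progenitor markers of the labelled tissue summed to 261 and 265 TPM, and podocyte, proximal tubule, ureteric bud, stromal and endothelial markers were all detected. The part of adrenal or muscle tissue in the ratios of the 8 genes was not tested.

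**Figure D3:**
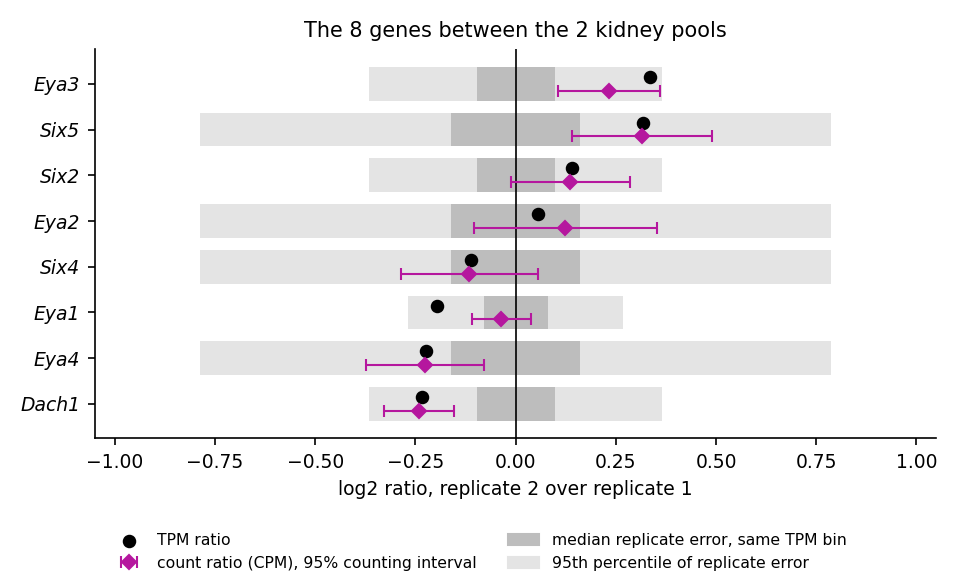
The log2 ratio of replicate 2 over replicate 1 (horizontal axis) for each gene (vertical axis), from TPM (circles) and from CPM with the exact 95% counting interval (diamonds); dark and light grey bands are the median and 95th percentile of replicate error for genes of like abundance. All TPM ratios lie inside the light band, from 0.34 for Eya3 to -0.23 for Dach1, and for Eya1 the circle (-0.20) and the diamond (-0.04) are apart.

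The transcript tables split each gene among its annotated forms, and the deposited percent gives each form's share of the gene's TPM. Of the 8 genes, 7 have more than 1 annotated transcript, and in all 7 the same transcript led in both libraries, as it did for 91.9% of detected protein-coding genes with 2 or more. Over those genes the leading share differed between the libraries by a median of 3.07 percentage points, with a 95th percentile of 18.9. The Six-family genes were simple. Six2-202 held 100% of Six2 in both libraries, Six5 has 1 annotated transcript, and Six4-201 held 86.1% and 87.8% of Six4, with the rest in Six4-202, whose coding region is shorter (1554 against 2325 nt). Eya2-202 held 92.3% and 96.9% of Eya2.

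Eya4 was divided between a pair of complete coding forms of equal coding length (1848 nt). Eya4-202 held 72.1% and 72.9%, and Eya4-201 held 27.9% and 27.1%, so the split differed by less than 1 percentage point between the pools. In place of an exon of 101 bases in one form, the other uses an exon of 101 bases next to it, towards the 3′ end of the coding region, at chr10:23109832-23109932 for Eya4-202 and chr10:23109971-23110071 for Eya4-201, both on the minus strand. They are shown because they are the only difference between the coding regions of the forms, which also differ in length outside them; capitals mark the 30 positions at which they differ (70.3% identity).
Eya4-202: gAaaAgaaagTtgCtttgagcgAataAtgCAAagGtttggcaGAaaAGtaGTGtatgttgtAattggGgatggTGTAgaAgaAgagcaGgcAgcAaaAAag
Eya4-201: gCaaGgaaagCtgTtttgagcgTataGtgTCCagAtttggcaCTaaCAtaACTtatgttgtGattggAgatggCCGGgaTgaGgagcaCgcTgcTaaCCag

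Dach1-201 held 81.0% and 87.9% of Dach1, and Dach1-202 held 16.3% and 9.36%. The longer form, Dach1-202, adds a cassette exon of 156 bases, 52 codons that leave the reading frame as it is, at chr14:97916393-97916548 on the minus strand.
Dach1-202: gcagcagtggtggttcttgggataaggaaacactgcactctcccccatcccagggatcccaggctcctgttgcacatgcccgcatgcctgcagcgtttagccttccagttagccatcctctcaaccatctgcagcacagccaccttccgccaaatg
Counts assigned to Dach1-202 were 369 in replicate 1 and 194 in replicate 2, and its TPM was 2.94 and 1.43. The quantifier's own intervals for those levels, 1.78 to 4.17 TPM and 0.791 to 2.47 TPM, overlapped. A retained-intron form, Dach1-203, held 2.71% and 2.74%.

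Eya1 was spread over 9 forms, and its leader held only 25.2% and 28.2%. Forms with a complete coding region summed to 22.3 and 22.4 TPM, which was 50.5% and 58.1% of the gene. Eya1-203 was second among them at 15.9% and 19.5%. Eya1-207, a short form of 725 nt with a partial coding region, held 19.3% and 17.9%, and Eya1-204, a retained-intron form of 3677 nt, held 14.3% and 15.8%. By share of counts, which favours long transcripts, Eya1-201 held 40.1% in both libraries and Eya1-207 4.54% and 3.74%. The leading complete forms differ in their coding DNA by 15 bases that Eya1-201 holds and Eya1-203 lacks (chr1:14270828-14270842) and by 3 bases the other way (chr1:14274208-14274210), both on the minus strand; those bases are in capitals.
Eya1-201: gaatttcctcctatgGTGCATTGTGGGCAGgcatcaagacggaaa
Eya1-203: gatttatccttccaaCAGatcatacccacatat

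**Figure D4:**
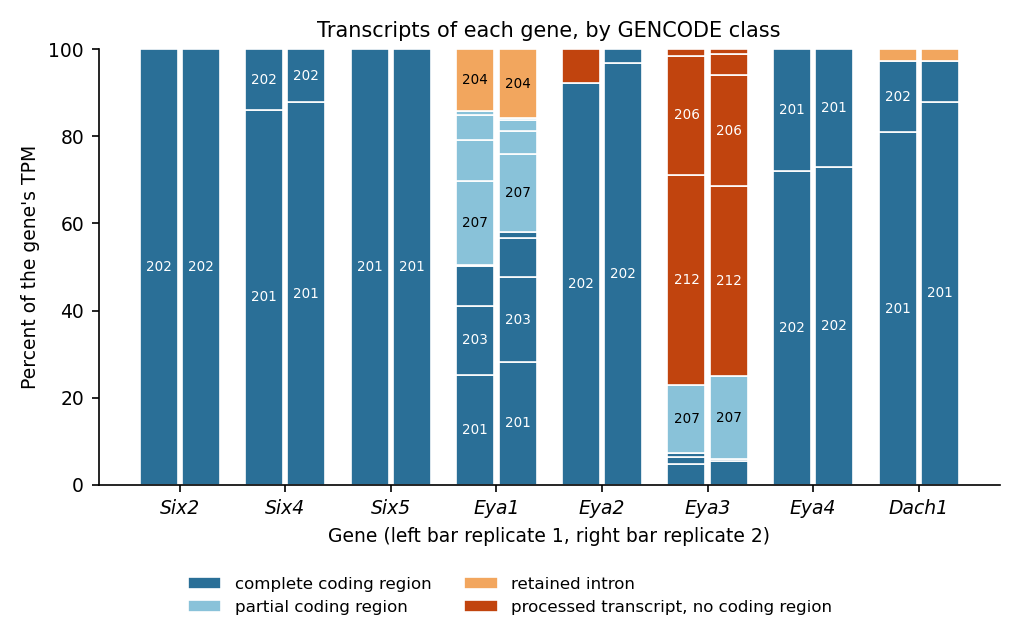
Percent of each gene's TPM (vertical axis) held by each annotated transcript, for the 8 genes (horizontal axis; left bar replicate 1, right bar replicate 2), coloured by GENCODE class; segments of 10% or more carry the transcript's number. The Six-family genes, Eya4 and nearly all of Dach1 are made of forms with a complete coding region, Eya1 is mixed, and Eya3 is led by Eya3-212 (48.2% and 43.6%), a processed transcript.

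Eya3 was the only gene of the 8 whose leading transcript has no annotated coding region. Its leading form, Eya3-212, held 48.2% and 43.6% of the gene, at 10.2 and 11.7 TPM. The annotation classes it as a processed transcript, a spliced RNA with no coding region. The second, Eya3-206, at 27.3% and 25.3%, is also a processed transcript, of 655 nt. Eya3-207, at 15.8% and 19.2%, has a partial coding region. The leading complete form, Eya3-203, held 4.89% and 5.46%, at 1.04 and 1.47 TPM, with quantifier intervals of 7.57e-05 to 1.24 TPM and 0.460 to 1.59 TPM.

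Summed by class, protein-coding forms held 23.0% and 25.1% of Eya3's TPM, and complete coding forms 7.24% and 5.85% (1.54 and 1.57 TPM). Across detected protein-coding genes with 2 or more transcripts, the medians were 92.6% and 88.1%. A leading transcript that is not protein-coding was found in 8.6% of such genes, a protein-coding share under 50% in 10.1%, and a complete coding share under 50% in 15%. Eya3 was the 1 gene of the 7 to meet each of these, a share close to the background, so the values describe Eya3 and not the family. Within the background its complete coding share lay at the 1.14 percentile and its protein-coding share at the 2.86 percentile. By counts in place of TPM, complete coding forms held 20.7% and 18.0% of Eya3, since those forms are long.

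The leading Eya3 form shares sequence with the coding ones, but their whole sequences are not compared here. Eya3-212 has 2320 nt in 16 exons, against 5160 nt in 17 exons for Eya3-203. Eya3-212 contains the phosphatase motif stretch shown above, and forms with that stretch summed to 11.8 and 13.3 TPM, or 55.4% and 49.5% of the gene. It lacks 177 bases (59 codons, in frame) that Eya3-203 includes, between chr4:132670216 and chr4:132673032 on the plus strand, where they are divided over more than 1 exon. The join it makes instead, capitals after the junction, is given next to the skipped bases.
Eya3-203: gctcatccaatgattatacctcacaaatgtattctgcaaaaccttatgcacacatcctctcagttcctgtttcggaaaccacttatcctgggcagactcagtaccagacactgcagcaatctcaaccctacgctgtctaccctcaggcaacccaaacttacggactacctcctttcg
Eya3-212: ccgattacatccctcCTTCAAGCACAAATG
A read that lies in exons shared by these forms, or by others of Eya3's 13 annotated forms, does not tell them apart. The split between forms is the quantifier's estimate, and the reads that decided it were not examined. Whether Eya3-212 is translated was not measured.

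The class of transcript that is summed decides where Eya3 stands among the 8 genes. On protein-coding forms Eya3 was at 5.82 ± 1.29 TPM, between Six5 and Eya2 and within replicate error of both, and on complete coding forms at 1.56 ± 0.0212 TPM, the lowest mean, though Six4 was above it by 0.88 and 0.77, within replicate error. Eya1 went from 41.3 to 35.1 ± 3.80 and to 22.3 ± 0.0849 TPM and remained the highest. The other 6 genes moved little, with Eya2 at 5.30 ± 0.445 and Dach1 at 16.2 ± 1.87 TPM on complete forms and the rest as before. On complete forms 18 of the 28 pairs differed beyond replicate error, and 6 pairs turned, all of them pairs with Eya3. Eya1 and Dach1, 1.26 apart on all transcripts, were 0.44 apart on complete forms, which was no longer beyond replicate error in both libraries.

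**Figure D5:**
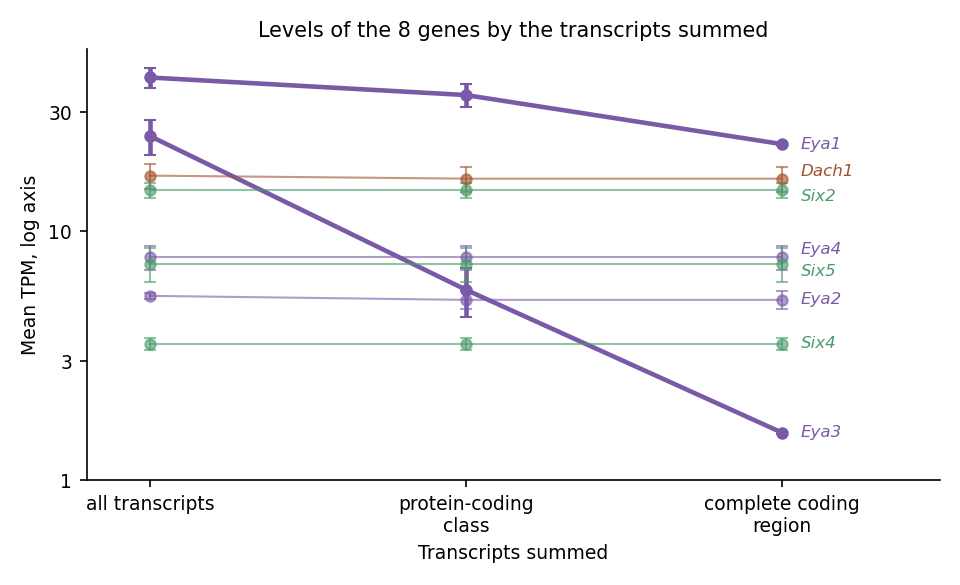
Mean TPM of the 8 genes (vertical log axis; error bars are the SD of the 2 libraries) when all transcripts, protein-coding transcripts, or transcripts with a complete coding region are summed (horizontal axis). Eya3 goes from 24.1 to 5.82 and 1.56 TPM and passes from the second place to the last, Eya1 goes from 41.3 to 22.3 TPM, and the lines of the other genes are nearly level.

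Few other annotated genes share these loci. A total of 7 small genes (Gm22616 and Gm37444 in Eya1, Gm11460 and Gm28163 in Eya2, Gm24655 in Eya4, Gm16331 and Gm25831 in Dach1) overlap 4 of the 8 genes, 4 of them on the opposite strand. Their counts reached at most 6, in Gm16331, and 4 of them had 0 counts in both libraries. The labels give a minimum fragment of 200 nt for both libraries. Of the genes with 0 counts, Gm22616, Gm24655 and Gm25831 are shorter than that, so their zeros do not show that they were not expressed. The sources used here do not say whether counting used strand, so reads from the opposite strand in these spans cannot be told apart from the members' own.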

How the data were processed

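Total RNA-seq of 2 pools of embryonic kidney was analysed from the deposited tables. Reads were aligned to mm10 and quantified with GENCODE M4, per the text files beside the tables; the sources used here give no aligner, quantifier or strand setting. Expected counts, as deposited, are the quantifier's estimate of reads for a gene or transcript and can be fractional. The deposited TPM values are scaled over all features, spike-ins included, and the deposited FPKM values served as an alternative. The deposited percent gives each transcript's share of its gene, and bounds of the quantifier's TPM intervals are the authors' own, with no level stated.

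Symbols, classes, coordinates and sequences were taken from GENCODE M21, also on GRCm38; 42462 genes (98.0%) matched, and 37 of the 38 transcripts of the 8 genes had the deposited length (Eya4-202 was 4091 nt in the tables and 5304 nt in M21). Complete coding means a protein-coding class without an incomplete end in the annotation. Tables held 0 columns of other samples.

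The genes and lists were chosen with earlier results of these data known. Named are all 8 genes, transcripts with 10% or more of a gene in either library, the highest 3 and lowest 3 detected genes of each list of network genes and those not detected, genes of marker lists whose summed TPM differed 1.5-fold, and overlapping genes. The values of 1 such marker list are not reported here. Pax2, Hoxa11, Hoxd11, Dach1-203 and Eya3-203 were added after their values were seen. Replicate error was computed for genes grouped by mean TPM (boundaries 1, 3, 10, 30 and 100), with a pseudocount of 1 for pairs. Count ratios have exact Clopper-Pearson intervals at 95%. Reads carry no molecular identifiers that are known here, so intervals cover counting error only. Scaling alternatives used edgeR 4.0.16 (TMM) and DESeq2 1.42.0 size factors on rounded counts. Scripts ran in Python 3.11.15 and were tested on simulated data.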

Additional observations from a re-analysis of the deposited data

How the results depend on the processing

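No paired analysis was possible because there is only 1 group, with 2 libraries, so nothing is tested between groups and every comparison is between genes or between these pools. All 8 genes were detected at 0.5 and 1 TPM and 7 at 5 TPM, without Six4. Of the 28 pairs, 20 differed beyond replicate error with FPKM, 18 with TPM over nuclear genes, 21 with a pseudocount of 0.1, and 20 to 23 with either library left out; no pair turned under these settings except Eya4 and Six5, which were in opposite order in the 2 libraries. The 2 settings chosen after seeing the data gave 16 (protein-coding forms, 4 pairs turned) and 18 (complete coding forms, 6 turned). The ratio of the Eya to the Six-family sum was 3.10, 2.91 to 3.28 with either library left out, and 1.46 on complete coding forms, where Eya1, Eya2 and Eya3 count for less. No member passed a ratio of 2 between pools under any scaling, fold or count minimum tried (0 of 8), a ratio of 1.5 included. Over all genes 166 passed, against 425 at 1.5-fold, 59 at 3-fold, 578 with a minimum of 20 counts and 5719 with none. With TMM or size factors the log2 ratio of Eya1 was -0.05, against -0.20 in TPM. The leading transcript of all 7 genes was the same by counts and by posterior means, but its share was not: Eya1-201 held 40.1% and Eya3-212 59.9% by counts, and Eya2-202 held 75.8% by posterior means. Transcript shares rest on the annotation used, and the intervals of the less abundant forms were wide.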
